A study of Mus musculus with 15 samples.

Results

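Tlx3, Lbx1, Drgx, Pou4f1, Lhx1 and Lhx5 are homeobox transcription factors of the dorsal sensory relay neurons of the hindbrain, which work beside Lmx1b in the developing brainstem. These 6 genes were taken by name from the 57180 Ensembl genes listed in both tables, and all 6 were found: Tlx3 (ENSMUSG00000040610), Lbx1 (ENSMUSG00000025216), Drgx (ENSMUSG00000041730, listed under its older symbol Prrxl1), Pou4f1 (ENSMUSG00000048349), Lhx1 (ENSMUSG00000018698) and Lhx5 (ENSMUSG00000029595). All 6 passed the filter on low counts in both tables. RNA-seq of polyA RNA was performed on brainstem tissue of C57BL/6 mice in 2 experiments. The AMPK experiment compared 3 AMPK+/+ with 3 AMPK-/- libraries from neonatal mice, in which the catalytic subunit AMPKα2 is deleted. The LMX1B experiment compared 3 LMX1B+/+, 3 LMX1B+/- and 3 LMX1B-/- libraries from prenatal mice, and the null genotype does not survive to birth. No Cre line or tissue restriction is named for either deletion, and the wild types were littermates. Neither the day of collection of a library nor its number of animals is given in the sources used here, so p-values measure the spread between libraries only.

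In the dorsal hindbrain and spinal cord, neurons that receive touch, pain, itch and temperature input arise from the alar plate in classes set by combinations of homeobox factors. Lbx1 marks the ventral classes of these neurons and sets them apart from more dorsal ones. Tlx3 selects the glutamatergic over the GABAergic fate within them, and Tlx3, Lmx1b and Drgx are made together in the glutamatergic relay neurons. Drgx is also made in the sensory neurons of the cranial and dorsal root ganglia that project to them. Pou4f1 (Brn3a) is a POU-homeodomain factor of sensory ganglion neurons, of habenula and midbrain neurons and of some dorsal interneurons. The LIM-homeodomain factors Lhx1 and Lhx5 are made in the inhibitory classes that also make Pax2, and in other neurons such as cerebellar Purkinje cells. In bulk tissue, fewer cells of a type and less RNA per cell cannot be told apart.

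Homeodomain proteins bind a short core, TAAT, so the sequences before the transcription starts were searched for TAAT on both strands (read as TAAT or ATTA). RefSeq (GRCm38.p6) windows of 300 bases, from 250 bases before to 50 bases after the start, were matched for 4 of the 6 genes: Tlx3, Drgx, Pou4f1 and Lhx1. The exon-free stretches of 3 of them are given below, because Tlx3 and Pou4f1 differed in opposite directions in AMPK-/- libraries and Tlx3 and Drgx were the lowest of the 6 relative to wild type in LMX1B-/- libraries. Capitals mark each TAAT or ATTA. The Tlx3 stretch (chr11:33203590-33203838, minus strand) ends at the annotated first exon, the Pou4f1 stretch (chr14:104468000-104468249, minus strand) likewise, and the Drgx stretch (chr14:32599733-32599866, plus strand) lies in an intron of Drgx, since GENCODE M21 places a further exon upstream of the RefSeq start.
Tlx3: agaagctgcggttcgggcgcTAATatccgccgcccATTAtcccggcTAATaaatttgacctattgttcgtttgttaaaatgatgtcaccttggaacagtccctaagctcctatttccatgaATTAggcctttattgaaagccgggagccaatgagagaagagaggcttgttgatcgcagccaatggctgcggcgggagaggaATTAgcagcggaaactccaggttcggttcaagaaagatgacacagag
Drgx: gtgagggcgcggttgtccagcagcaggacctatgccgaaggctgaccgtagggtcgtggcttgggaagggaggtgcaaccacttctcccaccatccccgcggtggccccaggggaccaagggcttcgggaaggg
Pou4f1: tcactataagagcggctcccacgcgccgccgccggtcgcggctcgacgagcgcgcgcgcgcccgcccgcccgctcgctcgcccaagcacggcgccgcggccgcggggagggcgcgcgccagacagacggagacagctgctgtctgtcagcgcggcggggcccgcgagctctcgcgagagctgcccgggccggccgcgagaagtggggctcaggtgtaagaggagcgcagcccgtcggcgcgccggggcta
The Tlx3 window held the core at 5 positions, the Lhx1 window at 1, and the Drgx and Pou4f1 windows at 0. Of all 32851 windows of the same length, 58.0% held at least 1 such core, and 5.29% held the palindrome TAATTA, which was in none of the 4. The GC content of these windows was 51.7% for Tlx3, 63.7% for Drgx, 65.7% for Lhx1 and 78.3% for Pou4f1.

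The depth set how far each value could be read. Total counts were 28833130 to 37441679 in the LMX1B libraries and 14975095 to 17384171 in 4 AMPK libraries, but 291212 in AMPK+/+ 2 and 335986 in AMPK-/- 3. A count of 0 allowed up to 9.98 and 9.07 CPM (counts over the TMM-scaled library total, in edgeR's unit) in these shallow libraries, against at most 0.198 CPM in the others, for counting error only. The LMX1B labels were checked on Lmx1b, which was at 22.5, 16.04 and 9.73 CPM in LMX1B+/+ 1 to 3, at 30.5, 11.9 and 14.2 CPM in LMX1B+/- and at 1.45, 1.13 and 0.848 CPM in LMX1B-/-. It was thus lower in the LMX1B-/- libraries, while the libraries labelled LMX1B+/- overlapped wild type (log2 fold change 0.23 ± 0.33 (SE), adjusted p = 0.618, edgeR). Prkaa2, which encodes AMPKα2, had 21.9, 26.6 and 29.7 CPM in AMPK+/+, and the libraries labelled AMPK-/- had 25.4, 22.3 and 12.1 CPM (-0.20 ± 0.23, adjusted p = 0.659, edgeR), and which part of the gene is deleted is not given in the sources used here. These libraries are therefore named by their labels. The share of counts on mitochondrially encoded genes was 10.4 to 13.9% in AMPK+/+ and 20.1 to 21.7% in AMPK-/- libraries. In the LMX1B experiment it was 5.57 to 6.74% in LMX1B+/+, 9.58 to 14.7% in LMX1B+/- and 7.23 to 7.98% in LMX1B-/- libraries. These ranges did not overlap within either experiment, and the part of this share in the results on the 6 genes was not tested.

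Read per length, as the deposited RPKM, the 6 genes were of similar level in AMPK+/+ libraries except for Lbx1 at 7.93 ± 1.93 RPKM (SD, n = 3) and Drgx at 4.87 ± 1.28 RPKM. Tlx3, Pou4f1 and Lhx5 lay at 2.29 ± 0.342, 2.29 ± 1.84 and 2.29 ± 0.596 RPKM and could not be ordered, and Lhx1 lay at 1.47 ± 0.196 RPKM. In the deep AMPK+/+ libraries 1 and 3 Pou4f1 was below Lhx1 (1.244 against 1.394 and 1.215 against 1.315 RPKM), and its mean rests on 4.41 RPKM from 6 counts in AMPK+/+ 2. In LMX1B+/+ libraries the order was another: Lhx1 was at 10.7 ± 1.72 RPKM, Lhx5 at 9.24 ± 2.73 RPKM, Pou4f1 at 6.02 ± 1.17 RPKM, Lbx1 at 4.84 ± 0.958 RPKM, Tlx3 at 3.68 ± 0.262 RPKM and Drgx at 2.38 ± 0.377 RPKM. The ranges over libraries overlapped for each neighbouring pair in this order except Tlx3 and Drgx, although Lhx1 was above Lhx5 in each library. Age differed between the experiments, and whether tissue preparation or sequencing run differed as well is not given in the sources used here. Any such difference cannot be told apart from age, so the levels of the AMPK and LMX1B libraries stand side by side without a test.

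**Figure D1:**
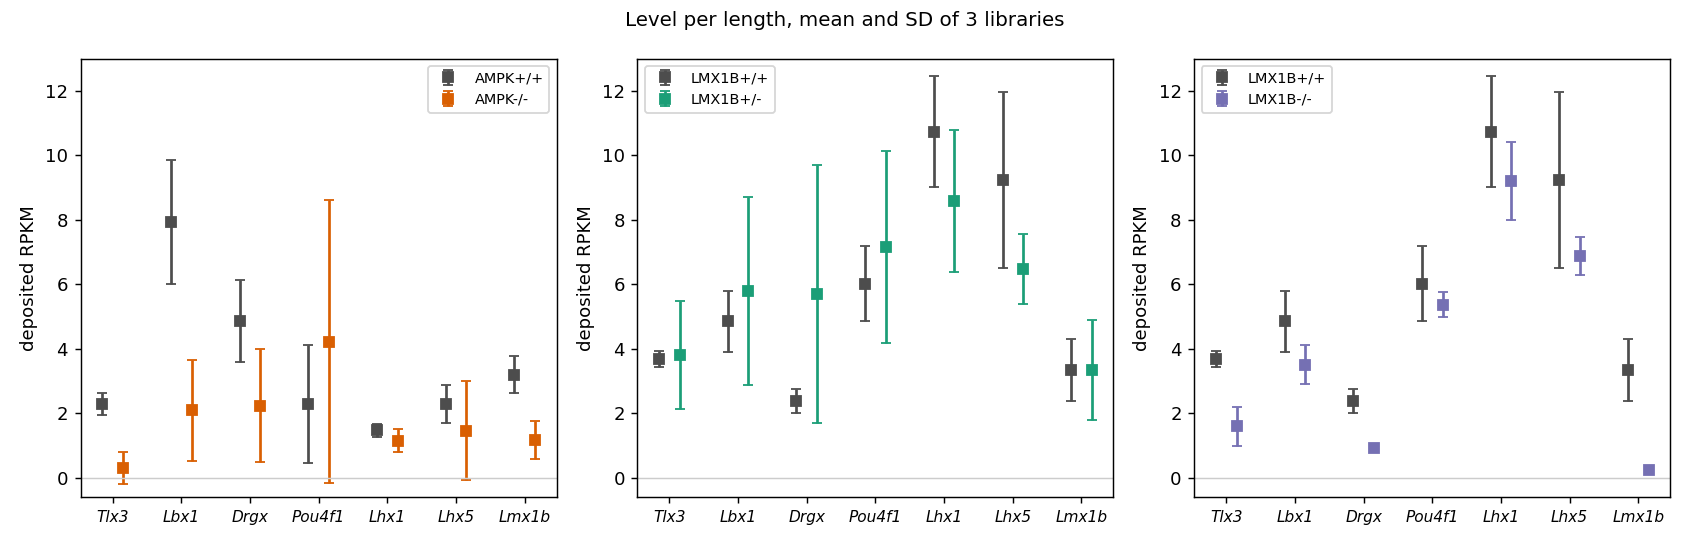
Mean and SD of the deposited RPKM (vertical axis, 3 libraries a genotype) for the 6 genes and Lmx1b, in AMPK+/+ and AMPK-/- (left), LMX1B+/+ and LMX1B+/- (middle), and LMX1B+/+ and LMX1B-/- (right). Lbx1 leads in AMPK+/+ at 7.93 RPKM and Lhx1 in LMX1B+/+ at 10.7 RPKM, and Tlx3 and Drgx of LMX1B-/- lie clear of their wild type.

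To ask how these factors differ with the AMPK label, where AMPKα2 is the subunit named as deleted, AMPK-/- was compared with AMPK+/+. Tlx3 and Lbx1 fell in the AMPK-/- libraries and Pou4f1 rose, so that 3 of 6 genes were called at an adjusted p under 0.05 (edgeR's quasi-likelihood F-test, Benjamini-Hochberg over 17397 genes), against 8.94% of all genes tested. The median log2 fold change of the 6 was -0.52, beside -0.0056 over all genes tested. The groups did not overlap for 2 of the 6 genes, Tlx3 and Lbx1, as for 26.6% of all genes tested. None of these calls remained in a fit without AMPK-/- 1, where 0 of 6 were called by edgeR with 1 at an unadjusted p under 0.05, nor in the 4 deeper libraries alone, where 0 of 6 were called with 3 at an unadjusted p under 0.05. In those 4 libraries the log2 fold changes were -2.09 for Tlx3, -1.77 for Lbx1 and 2.27 for Pou4f1, of like size as with all 6 libraries.

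Tlx3, the selector of the glutamatergic fate, was at 4.02, 3.33 and 2.74 CPM in AMPK+/+ 1 to 3 and at 0.0661, 1.49 and 0 CPM in AMPK-/- 1 to 3. Every AMPK-/- value lay below every wild-type value, but these rest on 61, 1 and 47 counts against 1, 23 and 0, and the 0 of the shallow AMPK-/- 3 allows a level above all wild-type values. The fitted log2 fold change was -2.13 ± 0.67 (SE), 4.36-fold lower, with an adjusted p of 0.0459 (edgeR). It was -1.23 without AMPK-/- 1 and -5.44 without AMPK-/- 2. Lbx1, which marks the classes in which Tlx3 acts, was at 23.6, 19.97 and 13.1 CPM in AMPK+/+ and at 0.991, 9.72 and 6.04 CPM in AMPK-/-. The lowest wild-type library had more Lbx1 than the highest AMPK-/- library, and AMPK-/- 1 stood far below the other libraries with 15 counts. Lbx1 was 3.43-fold lower (-1.78 ± 0.49, adjusted p = 0.0254, edgeR), with -0.97 on the log2 scale without AMPK-/- 1 and -3.94 without AMPK-/- 2. Both genes had a p of 0.1 in the two-sided exact permutation test of 3 against 3 libraries, the smallest it allows.

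Drgx, which marks sensory relay neurons and their ganglion inputs, was at 26.1, 16.6 and 15.6 CPM in AMPK+/+ and at 4.49, 19.9 and 6.04 CPM in AMPK-/-. AMPK-/- 2 lay within the wild-type range, and AMPK-/- 1 below all wild-type libraries. The log2 fold change of -0.80 ± 0.39 was not called (adjusted p = 0.205, edgeR). Without AMPK-/- 2 it was -2.13 with an adjusted p of 2.55e-05, and without AMPK-/- 1 it was -0.21 with an adjusted p of 0.828 (edgeR). Lmx1b was lower in all 3, with 18.8, 13.3 and 13.5 CPM in AMPK+/+ and 2.84, 9.65 and 6.04 CPM in AMPK-/- (2.54-fold lower, adjusted p = 0.0233, edgeR). This call was lost without AMPK-/- 1 (-0.76, adjusted p = 0.27), without AMPK-/- 3 (adjusted p = 0.078), without AMPK+/+ 2 (adjusted p = 0.0502) and in the 4 deeper libraries (adjusted p = 0.193, edgeR). In each of Tlx3, Lbx1, Drgx and Lmx1b, AMPK-/- 2 held the highest value of its genotype.

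Pou4f1 went the other way, and by 1 library. It was at 5.73, 19.97 and 5.14 CPM in AMPK+/+ and at 44.6, 7.64 and 9.07 CPM in AMPK-/-, with 675 counts in AMPK-/- 1 against 118 in AMPK-/- 2. The shallow libraries contributed 6 and 3 counts, and the groups overlapped. The fitted log2 fold change of 1.99 ± 0.49 was called (adjusted p = 0.0138, edgeR), and without AMPK-/- 1 it was 0.35 with an adjusted p of 0.782 (edgeR). Lhx1 was at 5.60, 6.65 and 4.84 CPM in AMPK+/+ and at 3.24, 5.51 and 6.04 CPM in AMPK-/-, and Lhx5 at 7.18, 6.65 and 3.91 CPM and at 8.46, 3.89 and 0 CPM. Both pairs of groups overlapped, and neither gene was called (-0.25 ± 0.37, adjusted p = 0.733, for Lhx1 and 0.056 ± 0.41, adjusted p = 0.959, for Lhx5, edgeR), with 95% confidence intervals of -1.01 to 0.52 and -0.79 to 0.91. The sign of the Lhx5 estimate is not that of its mean CPM (5.91 in AMPK+/+, 4.11 in AMPK-/-). That mean gives the 0 of the shallow AMPK-/- 3 the same weight as a deep library. In the 4 deeper libraries the log2 fold change was 0.16. Apart from this, Lhx5 shares its place with Gm27199 on the opposite strand, whose reads may be counted with it if strand was not used.

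**Figure D2:**
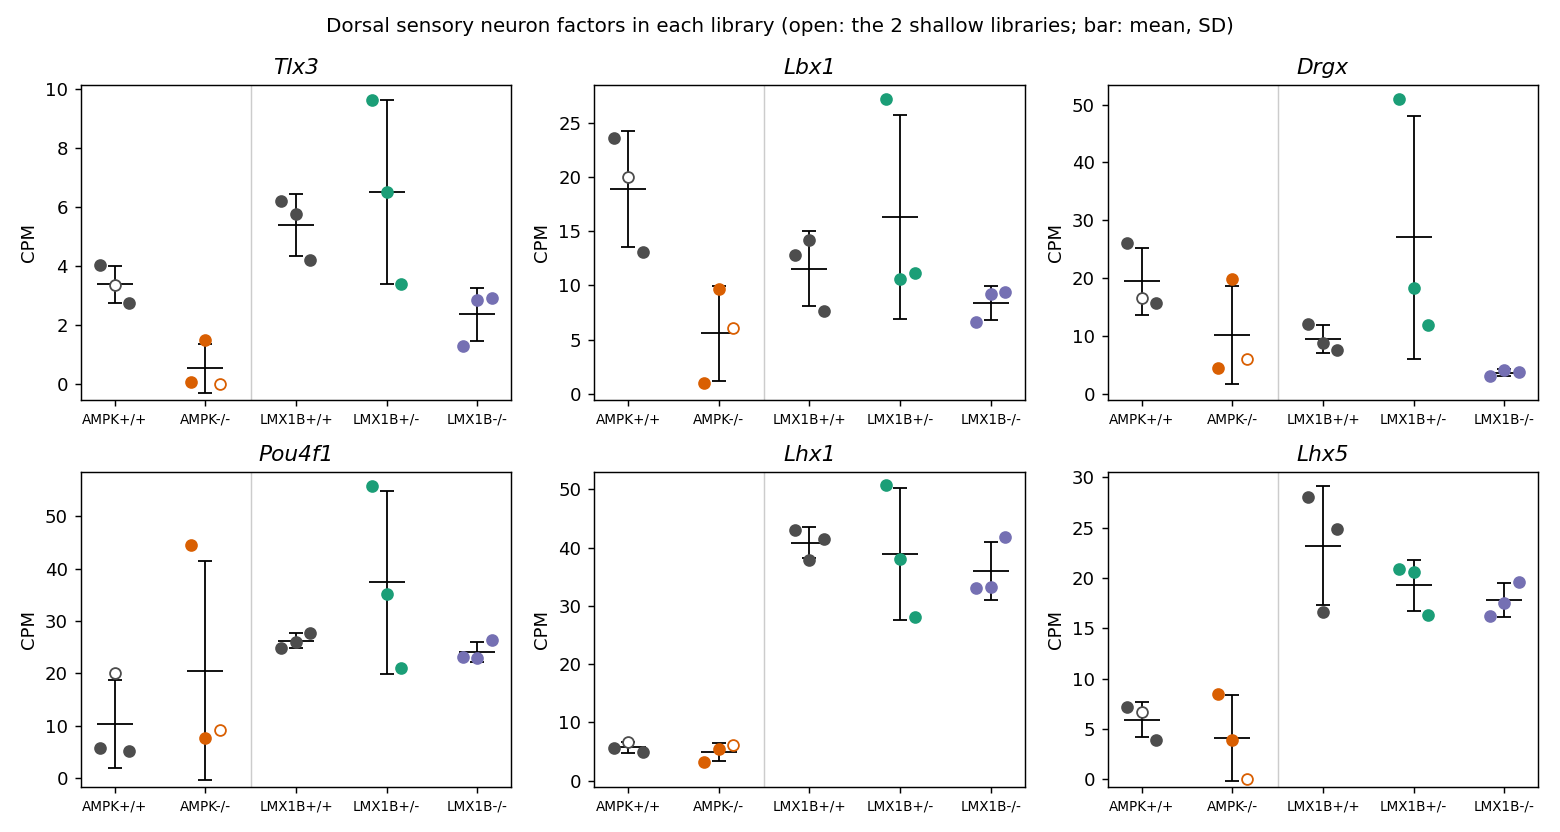
CPM (vertical axis, linear) of each of the 6 genes in every library of the 5 genotypes. Points are libraries 1 to 3 from left to right, open points are AMPK+/+ 2 and AMPK-/- 3 with the fewest counts, and bars are mean and SD, which can reach below 0. Tlx3 and Lbx1 of AMPK-/- lie below AMPK+/+, 1 AMPK-/- library stands out for Pou4f1 at 44.6 CPM, and 1 LMX1B+/- library is highest for 5 of the 6 genes among LMX1B libraries.

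AMPK-/- 1 stood apart in other genes as well, and these values are given beside the calls that rest on it. Calls in the gene lists below stand beside 8.94% of all genes tested. Hoxb5, a marker of the caudal hindbrain, was at 9.12 CPM there, against 36.5 to 68.1 CPM in AMPK+/+ and 50.1 and 24.2 CPM in the other AMPK-/- libraries. Foxp2, which Purkinje cells and other neurons make, was at 56.0 CPM in AMPK-/- 1, at 8.75 CPM in AMPK-/- 2 and at 33.2 CPM, from 11 counts, in AMPK-/- 3, against 2.37 to 13.3 CPM in AMPK+/+. The 12 caudal Hox genes summed to 11.4 CPM in AMPK-/- 1, within a range of 11.4 to 138 CPM in AMPK-/- and 63.2 to 146 CPM in AMPK+/+, and of the 6 tested 0 were called by edgeR (1 at an unadjusted p under 0.05), with Hoxc10 and Hoxd10 at 0 counts throughout. The 12 hindbrain Hox genes summed to 62.1 to 206 CPM in AMPK-/- and 136 to 237 CPM in AMPK+/+, with 0 of 12 called (2 at an unadjusted p under 0.05). The 14 cranial sensory ganglion genes summed to 73.7 to 126 CPM in AMPK-/- and 22.3 to 52.6 CPM in AMPK+/+, and 3 of the 8 tested rose (Scn9a, Calca and Prph) while 0 fell, with Mrgprd at 0. Of the 9 tested habenula genes 2 rose (Wif1 and Chrna3) and 1 fell (Irx2), and their sum was 67.9 to 135 CPM in AMPK-/- and 82.4 to 116 CPM in AMPK+/+. Of the 10 tested Purkinje genes Foxp2 rose and Itpr1 fell, at sums of 279 to 335 and 266 to 426 CPM. The part of tissue extent and of other cells in the results on the 6 genes was not tested.

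The other genes of the pathway, in lists of related factors, moved in AMPK-/- as follows, where 8.94% of all genes tested were called. Of 22 further factors of dorsal excitatory neurons 16 were tested, 4 fell and 1 rose, and the sum of the list was 82.8 to 262 CPM in AMPK-/- against 236 to 282 CPM in AMPK+/+. Barhl1, a factor of the most dorsal excitatory class, fell by 3.06 on the log2 scale (SE 0.65, adjusted p = 0.00493, edgeR), and Lmx1b and Maf fell as well. The study singled out Lmx1b, Maf and Pax2, among others, on these same libraries, so their direction here is not independent of that choice. Of 14 factors of dorsal inhibitory neurons 11 were tested and 2 fell, Pax2 (-1.81 ± 0.39, adjusted p = 0.00582, edgeR) and Sall3 (-1.07 ± 0.34, adjusted p = 0.0489, edgeR), with sums of 102 to 149 CPM against 162 to 184 CPM that did not overlap. Of 17 tested transmitter and peptide genes 3 rose, Calb2, Calb1 and Penk, which encode calcium-binding proteins and an opioid peptide precursor. None of 5 tested alar progenitor factors and none of 11 tested LIM-homeodomain cofactors and relatives was called by edgeR, with 0 and 0 at an unadjusted p under 0.05, and Atoh1, Neurog1, Ptf1a and Lhx8 had 0 counts in every AMPK library. Of the midbrain roof and isthmus genes Barhl1 alone was called among 7 tested, with Fgf8 at 0 counts, and of the forebrain genes 0 of 2 tested (0 at an unadjusted p under 0.05), with Dlx2 at 0 counts.

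To ask what loss of Lmx1b does to its partners, LMX1B-/- was compared with LMX1B+/+. Tlx3 and Drgx were lower in all 3 LMX1B-/- libraries than in any wild-type library, but 0 of 6 genes were called by edgeR, as were 0 of 6 by DESeq2 and 0 of 6 by limma on log2 RPKM. The adjusted p was under 0.05 for only 4 of 21729 genes (0.0184%), namely Slc6a4 and Tph2 of serotonergic neurons, Lmx1b and Calb1. At an unadjusted p under 0.05, 3 of 6 passed (Tlx3, Drgx and Lhx5), against 8.09% of all genes tested. All 6 log2 fold changes were negative, with a median of -0.42 beside 0.010 over all genes tested. The groups did not overlap for 2 of 6 genes, as for 18.0% of all genes tested.

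Tlx3 was at 6.19, 5.75 and 4.19 CPM in LMX1B+/+ 1 to 3 and at 1.29, 2.85 and 2.89 CPM in LMX1B-/- 1 to 3. The highest LMX1B-/- library held less Tlx3 than the lowest wild-type library. The log2 fold change was -1.18 ± 0.36, 2.27-fold lower, with an adjusted p of 0.532 (edgeR), and Tlx3 ranked 220 of 21729 genes by its unadjusted p. Drgx was at 12.1, 8.73 and 7.53 CPM in LMX1B+/+ and at 3.1, 4.22 and 3.74 CPM in LMX1B-/-. The LMX1B-/- libraries lay close together, at under the lowest wild-type value. Drgx was 2.55-fold lower (-1.35 ± 0.42, rank 284, adjusted p = 0.532, edgeR), and its exact permutation p, like that of Tlx3, was 0.1, the smallest that 3 against 3 libraries allow. In the fit of these 2 genotypes alone Drgx was called (-1.38, adjusted p = 0.0494, edgeR), and with all genes of any count kept both were called (adjusted p = 7.79e-06 for Tlx3 and 2.71e-13 for Drgx, edgeR).

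Lbx1 was at 12.8, 14.2 and 7.68 CPM in LMX1B+/+ and at 6.62, 9.18 and 9.36 CPM in LMX1B-/-. LMX1B+/+ 3 lay within the LMX1B-/- range, so that the groups overlapped (-0.45 ± 0.33, adjusted p = 0.718, edgeR). Pou4f1 hardly varied, at 24.8, 26.1 and 27.7 CPM and at 23.1, 22.9 and 26.3 CPM, and the 95% confidence interval of its log2 fold change was -0.64 to 0.40. Lhx1 was at 43.1, 37.9 and 41.5 CPM in LMX1B+/+ and at 33.1, 33.2 and 41.8 CPM in LMX1B-/-, with an interval of -0.55 to 0.19. Both groups overlapped for each gene, and neither was called (adjusted p = 0.914 and 0.787, edgeR). Lhx5 was at 28.1, 16.6 and 24.8 CPM in LMX1B+/+ and at 16.2, 17.6 and 19.6 CPM in LMX1B-/- (-0.38 ± 0.17, adjusted p = 0.615, edgeR), where LMX1B+/+ 2 lay within the LMX1B-/- range.

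Around the 6 genes, of 22 further factors of dorsal excitatory neurons only Lmx1b was called. At an unadjusted p under 0.05, 8 of 22 passed, against 8.09% of all genes tested, and the 8 include Lmx1b, the deleted gene itself. The sum of this list was 395 to 508 CPM in LMX1B-/- and 551 to 724 CPM in LMX1B+/+, which did not overlap, and Lmx1b made up at most 22.5 CPM of it. Of 14 factors of dorsal inhibitory neurons 0 were called by edgeR (3 at an unadjusted p under 0.05), at 277 to 353 and 348 to 372 CPM. Of 18 transmitter and peptide genes only Calb1, which encodes calbindin, was called (-0.85 ± 0.12, adjusted p = 0.0429, edgeR). Of the alar progenitor factors 0 of 10 tested were called (0 at an unadjusted p under 0.05) and of the LIM-homeodomain cofactors and relatives 0 of 13 (1 at an unadjusted p under 0.05). Beside this, 8 of 9 tested forebrain genes and 4 of 11 tested midbrain roof and isthmus genes passed an unadjusted p under 0.05 with 0 called in either, at median log2 fold changes of 1.63 and -0.87. The hindbrain Hox genes summed to 233 to 314 CPM in LMX1B-/- and 157 to 331 CPM in LMX1B+/+, the caudal Hox genes to 17.4 to 45.4 and 14.2 to 18.6 CPM, and the ganglion genes to 103 to 124 and 80.5 to 123 CPM, with 0 called in each of the 3 lists and 0, 1 and 2 genes at an unadjusted p under 0.05. The Purkinje and habenula lists had 0 called and 3 each at an unadjusted p under 0.05. Hoxd10 had 0 counts in every LMX1B library. The part of these other regions and cells in the values of Tlx3 and Drgx was not tested.

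**Figure D3:**
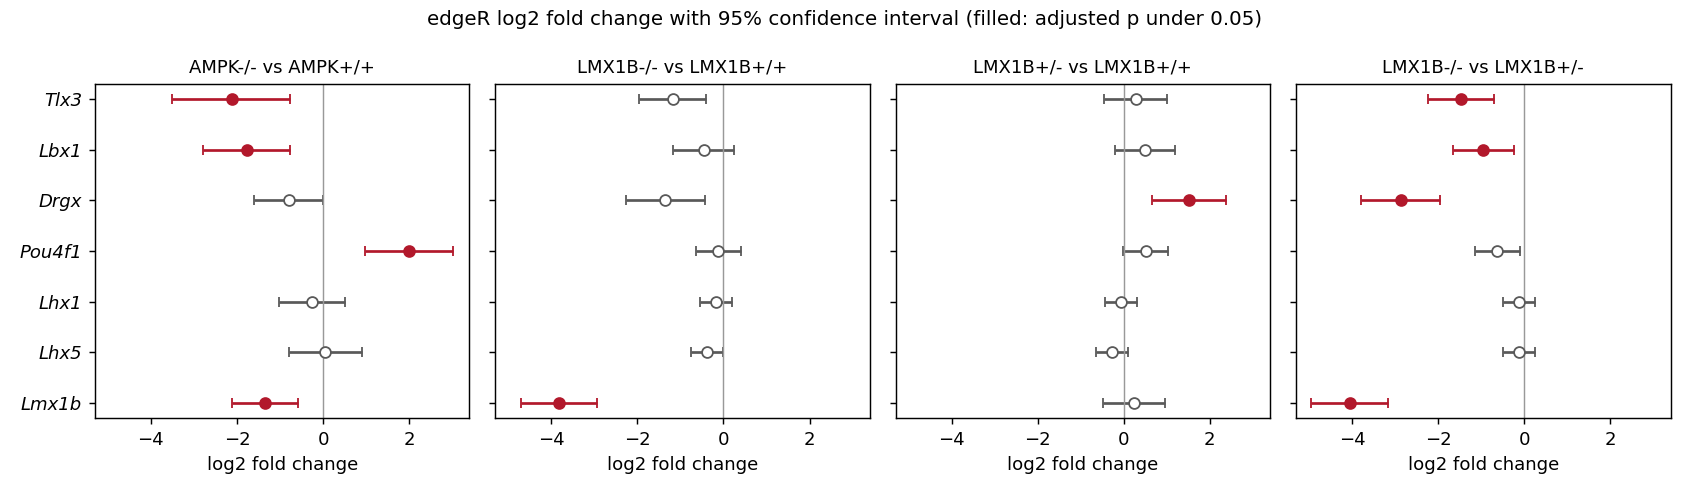
edgeR log2 fold change (horizontal axis) of the 6 genes and Lmx1b with its 95% confidence interval, in 1 panel for each of the 4 comparisons. Filled points have an adjusted p under 0.05. In LMX1B-/- against LMX1B+/+ all 6 points lie left of 0 with none filled, at -1.18 for Tlx3 and -1.35 for Drgx.

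To ask whether the LMX1B+/- label goes with like differences, LMX1B+/- was compared with LMX1B+/+. Drgx rose in the LMX1B+/- libraries and was the only one of the 6 genes called (edgeR), in a comparison in which 36.7% of all genes tested were called. The groups did not overlap for 0 of 6 genes, beside 45.3% of all genes tested. The median log2 fold change of the 6 was 0.39, beside -0.031 over all genes tested, and 4 of 6 were positive.

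Drgx was at 50.9, 18.3 and 11.9 CPM in LMX1B+/- 1 to 3, against 7.53 to 12.1 CPM in LMX1B+/+. LMX1B+/- 1 and 2 lay above all wild-type libraries and LMX1B+/- 3 just within their range. The log2 fold change was 1.52 ± 0.40, 2.86-fold higher, with an adjusted p of 0.00966 (edgeR) and an exact permutation p of 0.2. Tlx3 was at 9.63, 6.48 and 3.39 CPM in LMX1B+/-, which enclosed the 4.19 to 6.19 CPM of wild type (0.27 ± 0.34, adjusted p = 0.56, edgeR). Lbx1 was at 27.2, 10.6 and 11.1 CPM (0.50 ± 0.32, adjusted p = 0.25, edgeR), where LMX1B+/- 1 alone lay above wild type. Without LMX1B+/- 1 the log2 fold change of Drgx was 0.67 (adjusted p = 0.0313, edgeR), and those of Tlx3 and Lbx1 were -0.13 and -0.086.

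Pou4f1 was at 55.7, 35.2 and 21.1 CPM in LMX1B+/-, Lhx1 at 50.7, 38.1 and 28.1 CPM, and Lhx5 at 20.9, 20.6 and 16.3 CPM. The libraries of this genotype thus stood in the same order for Pou4f1, Lhx1, Lhx5, Tlx3 and Drgx, with LMX1B+/- 1 highest, while the wild-type values of Pou4f1 and Lhx1 lay within 24.8 to 27.7 and 37.9 to 43.1 CPM. None of the 3 was called (adjusted p = 0.117, 0.78 and 0.243, edgeR). Without LMX1B+/- 3, Pou4f1 was called (0.80, adjusted p = 0.00389, edgeR), and without LMX1B+/+ 2, Lhx5 was called (-0.46, adjusted p = 0.0266, edgeR).

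Hox gene levels differed between the LMX1B+/- libraries. Calls in the lists below stand beside 36.7% of all genes tested that were called (edgeR). All 5 tested caudal Hox genes of 12 rose, led by Hoxa7, Hoxb9 and Hoxc6, and the list summed to 134, 87.3 and 6.45 CPM in LMX1B+/- 1 to 3 against 14.2 to 18.6 CPM in LMX1B+/+. Of 12 hindbrain Hox genes 6 rose and 0 fell, led by Hoxc5, Hoxb3 and Hoxa5, at sums of 714, 361 and 265 CPM against 157 to 331 CPM. Hoxb5 was at 140 CPM in LMX1B+/- 1 and at 34.6 CPM in LMX1B+/- 3, in the order of Drgx and Tlx3. Of 11 tested midbrain roof and isthmus genes Tal2 rose and Pax5 fell (74.8 to 196 against 127 to 351 CPM), of 9 tested forebrain genes Neurod6 rose, and of 10 habenula genes 6 fell and 0 rose. Of 10 tested ganglion genes 2 rose and 3 fell, at 102 to 118 against 80.5 to 123 CPM, and of 11 tested Purkinje genes 1 rose and 4 fell. The part of tissue extent, and of the mitochondrial share that was higher in each LMX1B+/- library than in wild type, in the Drgx call was not tested.

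Of the further factors of dorsal excitatory neurons, Isl1 rose and Prdm8 and Rorb fell among 22 tested in LMX1B+/-. Of 14 factors of dorsal inhibitory neurons 4 fell and 0 rose, led by Rora (-1.02 ± 0.12, adjusted p = 4.86e-05, edgeR) and Prdm13, and the sum of the list was 242 to 301 CPM in LMX1B+/- below 348 to 372 CPM in LMX1B+/+. Of 18 transmitter and peptide genes 5 rose and 7 fell. The calls in these lists stand beside 36.7% of all genes tested. Grp and Tac1, which encode peptides of itch and pain neurons, were 1.34 ± 0.19 and 1.07 ± 0.19 higher on the log2 scale, while Slc32a1 had a log2 fold change of -0.73 ± 0.10 (adjusted p = 0.000173, 0.000883 and 0.000174, edgeR). Among 13 tested LIM-homeodomain cofactors and relatives Lmo2 and Lmo4 rose, and of 10 tested alar progenitor factors 0 were called (3 at an unadjusted p under 0.05).

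The direct comparison of LMX1B-/- with LMX1B+/- tests whether the mutant genotypes differ. Drgx, Tlx3 and Lbx1, the factors of the relay neurons, were lower in LMX1B-/-, and 3 of 6 genes were called (edgeR) against 25.5% of all genes tested. The groups did not overlap for these 3 of 6, beside 42.4% of all genes tested. Drgx was 7.30-fold lower (-2.87 ± 0.43, adjusted p = 0.000426, edgeR), Tlx3 2.74-fold lower (-1.46 ± 0.36, adjusted p = 0.00932, edgeR) and Lbx1 1.94-fold lower (-0.95 ± 0.33, adjusted p = 0.0483, edgeR). The Lbx1 call was lost in a fit without LMX1B+/- 1 (-0.38, adjusted p = 0.267, edgeR) and with DESeq2 (adjusted p = 0.0828), whereas those of Drgx and Tlx3 were kept in both, with a log2 fold change of -2.04 for Drgx without LMX1B+/- 1. These values share the LMX1B-/- libraries with the comparison against wild type, and each rests on 3 libraries.

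For the other 3 genes the LMX1B-/- and LMX1B+/- libraries overlapped. Pou4f1 had a log2 fold change of -0.63 ± 0.24 (adjusted p = 0.0749, edgeR), and was called without LMX1B+/- 3 (-0.91, adjusted p = 0.003, edgeR). Lhx1 and Lhx5 had 95% confidence intervals of -0.48 to 0.26 and -0.49 to 0.26. The median of the 6 was -0.79, beside 0.022 over all genes tested. Calls in the lists that follow stand beside 25.5% of all genes tested. Of 22 further factors of dorsal excitatory neurons 5 fell and 0 rose, led by Lmx1b, Mafa (-1.89 ± 0.40, adjusted p = 0.00375, edgeR), Ebf2 and Ebf1, while of 14 factors of dorsal inhibitory neurons 0 were called (3 at an unadjusted p under 0.05). Of 18 transmitter and peptide genes 6 rose and 6 fell. Grp, Cck and Tac1 were lower in LMX1B-/- (-1.32 ± 0.19, -2.24 ± 0.41 and -1.03 ± 0.19), and Slc32a1 and Gad2, which load and make GABA, were higher (0.70 ± 0.10 and 0.69 ± 0.11). Dbx2 rose among 10 tested alar progenitor factors, and Lhx6 rose and Lmo2 fell among 13 tested LIM-homeodomain cofactors and relatives. Beside this, 5 of 9 tested forebrain genes rose and 3 of 11 tested midbrain roof and isthmus genes fell, 1 of 12 hindbrain Hox genes fell, and 0 of 5 tested caudal Hox genes were called (2 at an unadjusted p under 0.05). The ganglion list had 2 higher and 1 lower, the Purkinje list 1 and 1, and the habenula list 2 and 0, and their part was not tested.

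**Figure D4:**
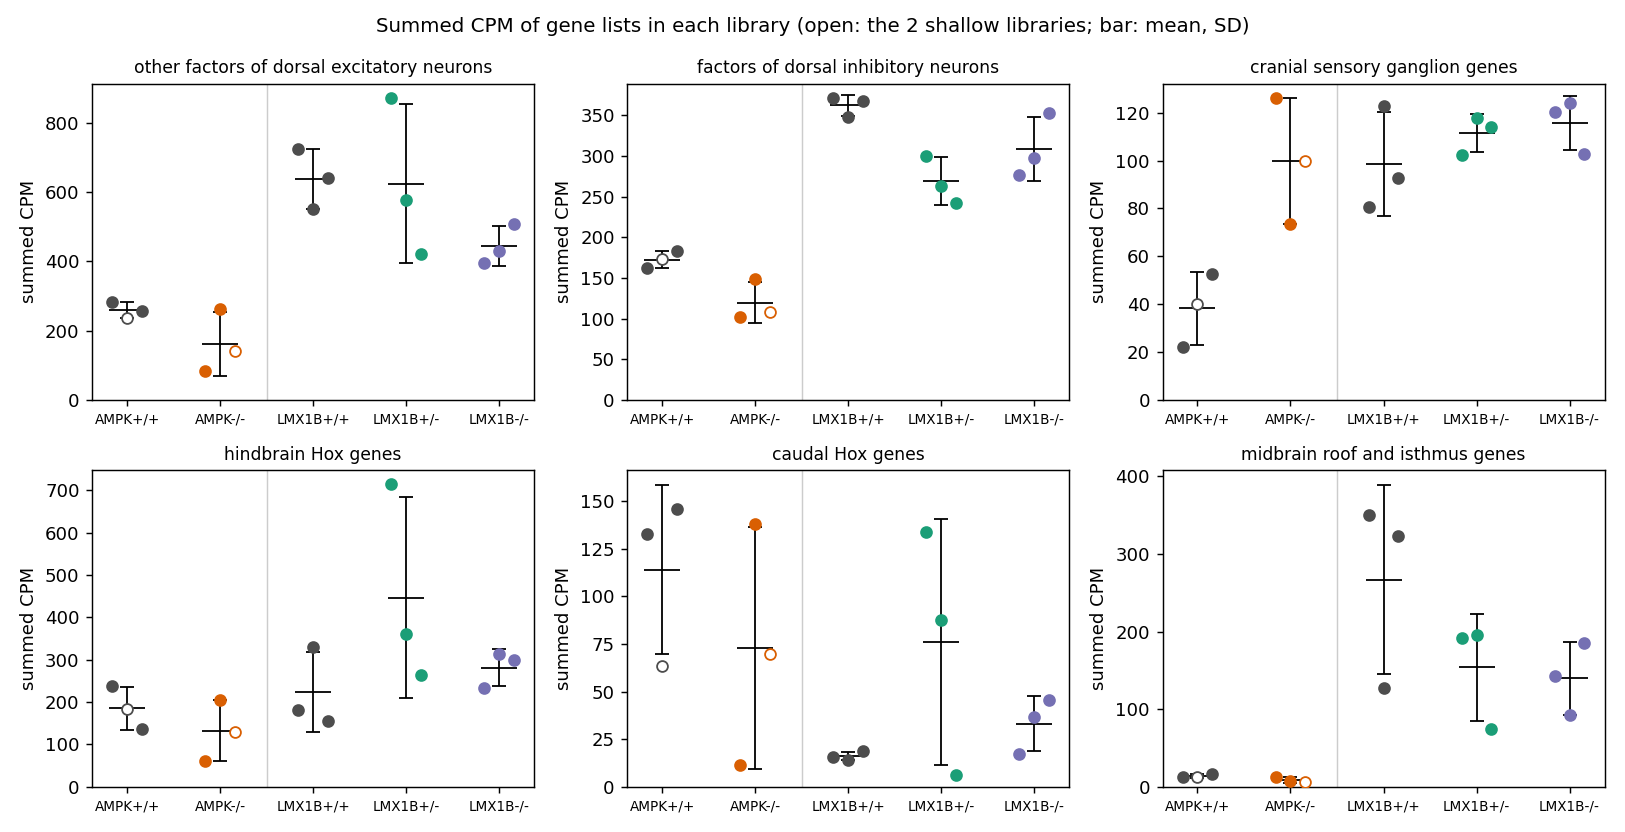
Summed CPM (vertical axis, linear) of 6 gene lists in every library of the 5 genotypes, with mean and SD as bars and the shallow libraries as open points. AMPK-/- 1 is lowest of the AMPK libraries in both Hox lists, and LMX1B+/- 1 is highest of the LMX1B libraries for the dorsal excitatory factors and both Hox lists.

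Over the 9 LMX1B libraries the levels of the 6 genes were compared as log2 CPM, with correlations given as a description, since the libraries share genotypes. Before the genotypes were taken into account, Tlx3 and Drgx varied most alike (Pearson's r = 0.876, Spearman's rho = 0.933), followed by Lbx1 and Drgx (r = 0.853, rho = 0.783) and Tlx3 and Lbx1 (r = 0.818, rho = 0.767). With the genotype means removed these were r = 0.815, 0.861 and 0.77, and Pou4f1 and Lhx1 were the pair most alike (r = 0.934), with Drgx at 0.853 with Pou4f1 and 0.846 with Lhx1. Lmx1b itself had r = 0.853 with Drgx and 0.812 with Tlx3, but with genotype means removed 0.726 and 0.316. Lhx1 and Pou4f1 had r = 0.76, and Lhx5 was least like the relay neuron factors, at r = 0.147 with Lbx1, 0.328 with Drgx and 0.506 with Tlx3. Within genotypes, Hoxb5 had r = 0.907 with Lbx1, 0.834 with Drgx, 0.772 with Tlx3, 0.797 with Pou4f1 and -0.043 with Lhx5. LMX1B+/- 1 was the highest of the 9 libraries for 5 of the 6 genes and for Lmx1b, and the range from lowest to highest library was 16.4-fold for Drgx, 7.45-fold for Tlx3, 4.11-fold for Lbx1, 2.64-fold for Pou4f1, 1.80-fold for Lhx1 and 1.73-fold for Lhx5.

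**Figure D5:**
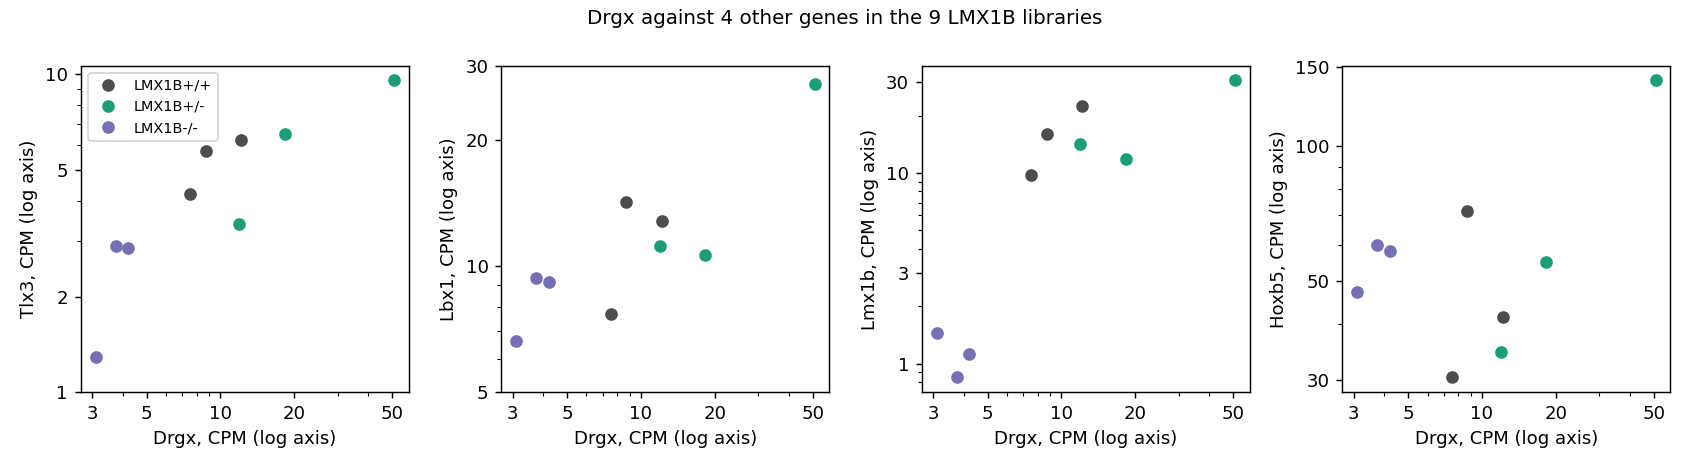
CPM of Drgx (horizontal axis, log scale) against CPM of Tlx3, Lbx1, Lmx1b and Hoxb5 (vertical axes, log scale) in the 9 LMX1B libraries, coloured by genotype. The 3 LMX1B-/- libraries have the least Drgx, at 3.1 to 4.22 CPM, and 1 LMX1B+/- library is highest on every axis.

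Of all genes tested, those most like each factor over the same 9 libraries were named by r alone. For Drgx they were Gm49743 (r = 0.984), C130021I20Rik (0.983), Mafa (0.964), a factor of dorsal horn and sensory neurons, and Hspb1 (0.953), a small heat shock protein. Gm49743 is the gene next to Drgx on the same strand in GENCODE M21, and C130021I20Rik is the one next to Lmx1b on the opposite strand, so their reads may not be independent of those genes. For Lbx1 they were Ddost (0.957), Skor1 (0.936), Kcnh8 (0.933) and Sirt5 (0.925), and Skor1 encodes a corepressor that binds Lbx1. For Tlx3 they were Gm5472 (0.95), Gm48766 (0.94), Klf10 (0.927) and Gadd45a (0.922). For Pou4f1 they were Tal2 (0.954), a factor of midbrain GABA neurons, Gm37861 (0.952), Gm43486 (0.948) and Eif3s6-ps4 (0.944). For Lhx1 they were Bcl11a (0.979), Runx1t1 (0.942), Bcl11b (0.941) and Tmem39b (0.94), and for Lhx5 they were Sh2b2 (0.978), Tox3 (0.973) and the neighbouring homeobox genes Irx5 (0.958) and Irx6 (0.949).

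Between the experiments, the wild-type levels in CPM stood as follows. Lhx1 was at 4.84 to 6.65 CPM in neonatal AMPK+/+ and 37.9 to 43.1 CPM in prenatal LMX1B+/+, and Lhx5 at 3.91 to 7.18 and 16.6 to 28.1 CPM. Pou4f1 was at 5.14 and 5.73 CPM in the deep AMPK+/+ libraries, 19.97 CPM from 6 counts in the shallow one, and 24.8 to 27.7 CPM in LMX1B+/+. Tlx3 was at 2.74 to 4.02 and 4.19 to 6.19 CPM, Lbx1 at 13.1 to 23.6 and 7.68 to 14.2 CPM, and Drgx at 15.6 to 26.1 and 7.53 to 12.1 CPM. By these values Lhx1, Lhx5, Pou4f1 and Tlx3 were higher in each prenatal library, Drgx was higher in each neonatal one, and Lbx1 overlapped. In the shallow AMPK+/+ 2 they rest on 2 counts for Lhx1, 2 for Lhx5, 6 for Pou4f1, 1 for Tlx3 and 5 for Drgx. The order is therefore not settled for that library, and Tlx3 was apart by only 4.02 against 4.19 CPM.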

How the data were processed

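The 6 genes, the gene lists and the tests were chosen with earlier results of these data known. Libraries were made with the NEXTflex Rapid Directional qRNA-Seq kit and run on an Illumina HiSeq. The submitters' processing notes list HISAT2 and GRCm39, and the study names systemPipeR and edgeR. The counter, annotation and strand setting are not given in the sources used here. The authors deposited raw counts per gene, and RPKM (counts scaled by gene length and library total) made from them. Of 57180 Ensembl identifiers, 51884 (90.7%) matched a symbol. The columns read as wild type 3 carry other suffixes than their labels, and 0 columns were left out. The AMPK library names share 1 flow cell and lane, and the LMX1B names give none, so no batch could be fitted.

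The counts went into edgeR 4.0.16 under R 4.3.3 (filterByExpr, TMM, quasi-likelihood F-test, Benjamini-Hochberg), in 1 fit of the 6 AMPK and 1 of the 9 LMX1B libraries, and CPM are per TMM-scaled total. The call threshold was an adjusted p of 0.05. The fit was tested on simulated data. Single genes were compared by two-sided exact permutation of CPM, correlations used log2 CPM (prior count 2), and 3 counts set the limit of a 0. Alternatives were DESeq2 1.42.0, limma 3.58.1 on log2(RPKM + 1), RLE factors, library size only, no filter, a replicate block, fewer libraries and each library left out. Named genes were the 6, Lmx1b, Prkaa2, up to 4 called genes of a pathway list and 3 of a marker list by smallest p, and the 4 of highest correlation, except that some genes of these lists are not reported here. The lists were alar progenitor, dorsal excitatory and dorsal inhibitory factors, transmitter and peptide genes, LIM-homeodomain cofactors and relatives, and hindbrain Hox, caudal Hox, cranial ganglion, Purkinje, midbrain roof and isthmus, forebrain and habenula markers.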

Additional observations from a re-analysis of the deposited data

How the results depend on the processing

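Of 306 values of the 6 genes under the alternatives, 256 kept their direction and their side of the threshold, 23 lost the call, 12 gained one and 15 changed sign, and the causes were not tested. In AMPK-/- against AMPK+/+, 1555 genes were called by edgeR, 667 by DESeq2, 0 by limma on log2 RPKM (2840 at an unadjusted p under 0.05), 6 in the 4 deeper libraries and 548 to 2958 with 1 library left out. Of the 6 genes 0 were called by limma and 0 in the 4 deeper libraries, each with 3 at an unadjusted p under 0.05, and 0 to 4 with 1 library left out. With AMPK+/+ 1, 2 or 3 or AMPK-/- 1 or 3 left out Tlx3 was not called, and with AMPK+/+ 2 or AMPK-/- 1 or 3 left out Lbx1 was not. DESeq2 gave no adjusted p for any of the 6 there. Lhx5 had log2 fold changes of -0.10 by library size only and -0.63 by limma, and with 1 library left out it ranged from -0.63 to 0.49 and Lhx1 from -0.60 to 0.10.

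In LMX1B-/- against LMX1B+/+, 35 genes were called by DESeq2, 19 by library size only, 329 with no filter on low counts, 13 with only the 2 genotypes and 3 to 11 with 1 library left out, and of the 6 genes 2 with no filter and 1 with only the 2 genotypes. In LMX1B+/- against LMX1B+/+, 2 of the 6 were called by library size only, 3 with no filter and 1 to 2 with 1 library left out. There limma gave -0.030 for Tlx3 and -0.030 for Lmx1b, and with 1 library left out Tlx3 ranged from -0.13 to 0.59, Lbx1 from -0.086 to 0.75, Lhx1 from -0.32 to 0.12 and Lmx1b from -0.30 to 0.56. In LMX1B-/- against LMX1B+/-, 3500 to 6054 genes were called with 1 library left out, Lhx1 was 0.10 and Lhx5 0.086 by library size only, 0.11 and 0.081 by limma, and Lhx1 ranged from -0.30 to 0.12 with 1 library left out. Lbx1 lost its call there by DESeq2, limma, with only the 2 genotypes and without LMX1B+/- 1 or any 1 LMX1B-/- library.

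Replicate numbers did not pair the libraries: correlations of same-numbered libraries were -0.12 to 0.05 in the AMPK and -0.18 to 0.15 in the LMX1B experiment, and 0 of 6 and 2 of 9 libraries correlated best with their own number. With the replicate number as a block, 4 of the 6 genes were called in AMPK-/-, Drgx among them (-1.66, adjusted p = 0.000247, edgeR), Lhx5 was -0.065 there, and Lbx1 was not called in LMX1B-/- against LMX1B+/- (adjusted p = 0.0845, edgeR). The shallow libraries limit the low genes most: Tlx3 rests on 1 and 0 counts in them.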
